A study of Schizosaccharomyces pombe with 6 samples.

Results

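The genes described here encode factors that build the ribosome in fission yeast, *Schizosaccharomyces pombe*. They were chosen by name. A gene was taken if the array annotation pairs a probe set with it alone and its symbol is skb15 or carries 1 of the family names dbp, nop, nog, noc, utp, rrp, rrs, rix, ebp, sda, nsa, enp, bms, krr, sof, tsr, rlp, rpf, brx, erb, ytm, nip or prh followed by a number. This gave 37 genes, each with 1 probe set, out of 2898 *S. pombe* genes with such a probe set. RefSeq (assembly ASM294v3) lists 96 *S. pombe* symbols of these families, so that the genes described are only some of them.

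Expression was measured on 6 Affymetrix Yeast Genome 2.0 arrays. The 3 NaHS arrays hold RNA of wild-type 972 h- cells that were grown in liquid medium to an OD600 of 0.5 and then given 50 µM NaHS for 30 min at 30°C, and the 3 untreated arrays hold RNA of the same strain at the same density without NaHS. NaHS is a salt that releases hydrogen sulfide (H2S) in water. Each group is 3 biological repeats of 1 wild-type strain, with 1 dose and 1 time, and the comparison asks which transcripts had changed after NaHS.

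Ribosomes are assembled in the nucleolus. RNA polymerase I makes a long precursor RNA, which is cut and chemically modified into the rRNAs while assembly factors and ribosomal proteins bind it, and the precursors of the small and the large subunit then leave the nucleus separately. The factors work on the particle and are released from it, and include RNA helicases, GTPases, methyltransferases and scaffold proteins. In yeasts the genes of this process are known to be transcribed together and to be turned down when growth slows or cells are stressed. The roles given for single genes are mostly those of their counterparts in *S. cerevisiae*.

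All 37 genes were measured well above background. Their log2 signals ran between 8.58 and 12.38. The *S. cerevisiae* probe sets on the same array, for which no matching RNA was hybridised, had a median mean log2 signal of 0.7, and the 83 of them that carry the same family names had a median of 0.61. Of the 6 h- cell markers measured, *mfm2* averaged 10.92 with NaHS and 10.59 untreated, *mam1* 9.06 with NaHS and 8.31 untreated, *mam3* 7.99 with NaHS and 8.04 untreated, and *mam2* 7.40 with NaHS and 7.14 untreated. *mfm3*, at 6.69 with NaHS and 6.80 untreated, lay within the range of means of the h+ markers *map1*, *map2* and *map3*, 5.40 to 6.88, and *mfm1* was near background at 2.63 with NaHS and 2.66 untreated.

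The 2 arrays numbered replicate 1 stood apart from the others in both groups. The 6 control probe sets for *S. pombe* rRNA of the small and the large subunit read 5.26 to 9.24 there and 9.23 to 12.33 on the other arrays, a difference of -4.29 to -1.99, whereas NaHS minus untreated was -0.08 to 0.25. The 5′ probe set for the added control RNA dap also differed, with 6.87 to 7.07 on the replicate 1 arrays and 4.72 to 5.03 on the others. The remaining dap probe sets were higher on the replicate 1 arrays by 0.03 to 0.85. For the added control RNA thr, the 5′ probe set was higher there by 2.06 with NaHS and 1.87 untreated. The middle thr probe set was higher by 1.58 and 1.5, and the 3′ one by 0.36 and 0.17. Values with the replicate number as a block, or without these arrays, are therefore given beside the results they change. The median over all tested probe sets was even between arrays, at 9.49 to 9.58.

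All 37 ribosome biogenesis genes had a lower mean signal with NaHS than without. The strongest decrease was that of *dbp2*, an RNA helicase, which was 1.98-fold lower, and the weakest was that of *tsr3*, an enzyme that modifies rRNA of the small subunit, at 1.03-fold. In a limma fit over 4965 probe sets, 11 of the 37 fell at an adjusted p below 0.05 and 0 rose, where 3.67% of all tested probe sets fell and 3.97% rose. A fitted change below 0, found for 37 of 37, applied to 47.4% of all tested probe sets. In 29 of the 37 all NaHS arrays lay below all untreated arrays (13.7% of all tested probe sets), and in 0 did they lie above them (14.6%). The median log2 fold change was -0.36 for the 37 genes and 0.01 for all tested probe sets, of which 8.26% lay below -0.36. A lower signal in these whole cultures cannot tell fewer expressing cells from less RNA per cell.

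**Figure D1:**
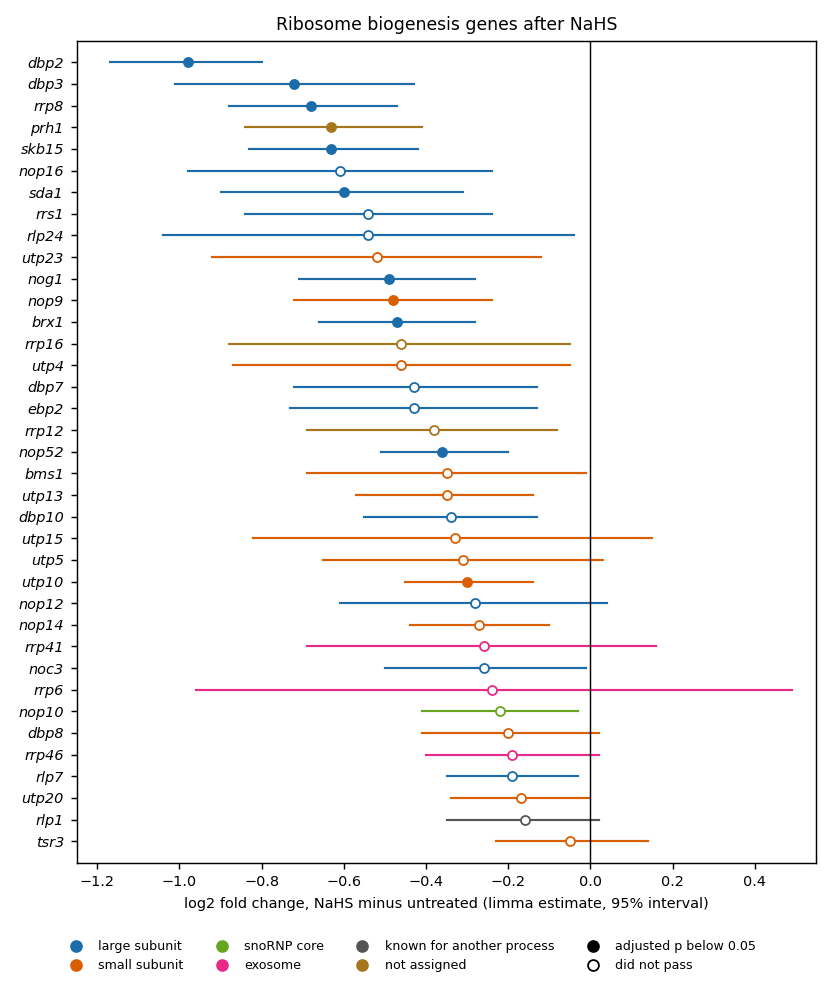
Log2 fold change (NaHS minus untreated, n = 3 arrays each) of the 37 ribosome biogenesis genes, with 95% intervals from limma, coloured by role. Filled points had an adjusted p below 0.05. All 37 points lie below 0, from -0.98 for *dbp2* to -0.05 for *tsr3*, and the 11 filled points include 8 large subunit genes.

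The size of the change was modest. Of the 11 genes that fell, 6 (*dbp2*, *dbp3*, *rrp8*, *prh1*, *skb15* and *sda1*) were lower by more than 1.5-fold, and 1.59% of all tested probe sets fell at this fold and threshold. By fold alone *nop16* made a further one. Leaving out 1 array reduced the number of genes that fell to 8, 2 and 3 without NaHS replicates 1, 2 and 3. Without untreated replicates 1, 2 and 3 it was 6, 2 and 1. The gene called in all 6 such fits was *dbp2*.

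The decrease was steadier between arrays of the same replicate number. The pairing rests mainly on replicate 1. Over all tested probe sets, deviations from the group means correlated across numbers 2 and 3 (0.592 and 0.637) as much as within them (0.578 and 0.598). For each of the 37 genes the NaHS array read lower than the untreated array of the same number in 3 of 3 cases (30.2% of all tested probe sets), that is, in 111 of 111 differences. The median difference was -0.42, -0.34 and -0.41 for numbers 1, 2 and 3. With the replicate number as a block in limma, 31 of the 37 fell and 0 rose, where 16.4% of all tested probe sets fell. These 31 include all 11 genes called without the block. With both replicate 1 arrays left out, which was tried after the arrays had been seen to stand apart, 21 of the 37 fell, the 11 among them, against 7.33% of all tested probe sets.

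**Figure D2:**
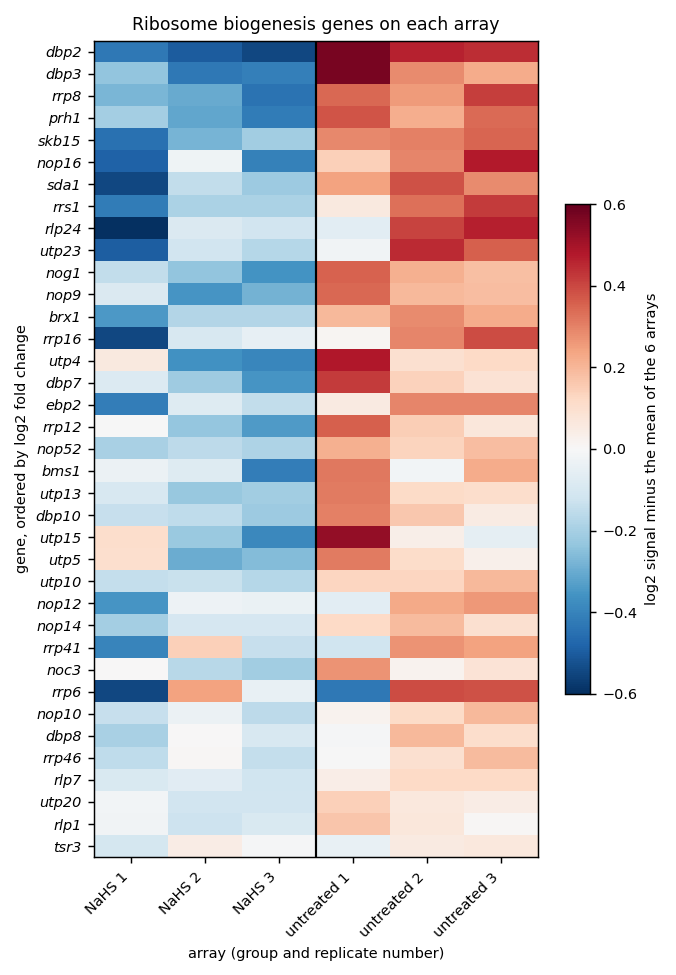
Log2 signal of each of the 37 genes on each array, minus its mean over the 6 arrays (colour scale -0.6 to 0.6), with the NaHS arrays left of the untreated ones and genes ordered by fold change. The NaHS arrays are mostly blue and the untreated ones mostly red, and several genes such as *rrp6* are lower on replicate 1 in both groups.

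The largest role group was the 17 factors of the large subunit. Of these, 8 fell, 16 had groups that did not overlap, and the median log2 fold change was -0.49, with a range of -0.98 to -0.19. With the replicate block all 17 fell. Among the 12 small subunit factors 2 fell, 8 had groups that did not overlap, and the median was -0.32 (-0.52 to -0.05). With the block 10 of them fell. Over all tested probe sets 3.67% fell, and in 13.7% all NaHS arrays lay below all untreated ones. With the block 16.4% fell. The difference between the 2 role groups was not tested.

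The largest decreases included 3 RNA helicases, enzymes that unwind RNA or take proteins off it. *dbp2*, a DEAD-box helicase whose *S. cerevisiae* counterpart also acts in mRNA decay, had log2 signals of 11.24, 11.17 and 11.12 with NaHS, against 12.24, 12.13 and 12.11 untreated. The lowest untreated value was higher than any NaHS value by a wide margin compared with the spread within the groups. The log2 fold change was -0.98 ± 0.07 (SE, n = 3 each, limma adjusted p = 0.00171), and only 26 of the 4965 tested probe sets had a lower one. *dbp3*, needed in *S. cerevisiae* for cutting of the precursor on the way to the large subunit, read 10.70, 10.51 and 10.53 with NaHS, against 11.51, 11.22 and 11.16 untreated. Replicate 1 was the highest in both groups, and the groups did not overlap. Its log2 fold change was -0.72 ± 0.12 (SE, limma adjusted p = 0.0225), or 1.64-fold lower. The predicted RNA helicase gene *prh1*, placed with neither subunit here, read 8.80, 8.69 and 8.58 with NaHS, against 9.38, 9.22 and 9.34 untreated. Each NaHS array was thus below each untreated one. The log2 fold change of *prh1* was -0.63 ± 0.09 (SE, limma adjusted p = 0.0141). When 1 array at a time was left out, *dbp3* and *prh1* each kept the call in 2 of 6 limma fits, and the adjusted p rose up to 0.0954 and 0.0813.

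Of the 6 helicase genes these 3 fell, where 3.67% of all tested probe sets did, and the median log2 fold change was -0.53. *dbp7* and *dbp10*, both for the large subunit, had log2 fold changes of -0.43 (adjusted p = 0.0994 in limma) and -0.34 (0.0764). Their groups did not overlap, and both fell with the replicate block (adjusted p = 0.0066 and 0.014). *dbp8*, for the small subunit, read 9.09, 9.29 and 9.19 with NaHS, against 9.28, 9.48 and 9.39 untreated. Its groups overlapped, because replicate 1 was lowest in both, while the differences within numbers were -0.20, -0.19 and -0.20. Its limma adjusted p was 0.277 without the block and 0.0267 with it.

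Of the large subunit factors that are not helicases, 6 fell. *rrp8* encodes the counterpart of a methyltransferase that modifies an adenine of the large rRNA. It read 9.28, 9.25 and 9.11 with NaHS, against 9.90, 9.81 and 9.97 untreated, a log2 fold change of -0.68 ± 0.08 (SE, limma adjusted p = 0.00849). With 1 array left out at a time the call was kept in 5 of 6 limma fits, with a highest adjusted p of 0.0591. *skb15*, named as a binding partner of the kinase Shk1 and related to Mak11 of *S. cerevisiae*, a large subunit factor, read 9.72, 9.89 and 9.96 with NaHS. The untreated arrays read 10.46, 10.47 and 10.52, so that the NaHS arrays were more spread than the untreated ones but did not reach them. The log2 fold change was -0.63 ± 0.08 (SE, limma adjusted p = 0.0115), and 3 of the 6 limma fits with 1 array fewer kept the call (adjusted p up to 0.0734).

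*sda1*, needed for the maturation and export of the large subunit in *S. cerevisiae*, read 9.11, 9.51 and 9.44 with NaHS, against 9.90, 10.04 and 9.94 untreated. NaHS replicate 1 was the lowest of the 6 arrays. The log2 fold change was -0.60 ± 0.12 (SE, limma adjusted p = 0.0395). *nog1*, a GTPase of the large subunit precursor, read 10.88, 10.79 and 10.67 with NaHS, against 11.38, 11.24 and 11.21 untreated. Replicate 1 was the highest in both groups, and the log2 fold change was -0.49 ± 0.09 (SE, limma adjusted p = 0.0284). With 1 array left out at a time, each of these kept the call in only 1 of 6 limma fits, and the adjusted p rose up to 0.165 for *sda1* and 0.118 for *nog1*.

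*brx1* and *nop52*, whose counterparts act early in large subunit assembly, had little spread. *brx1* read 10.88, 11.05 and 11.05 with NaHS, against 11.42, 11.51 and 11.45 untreated. *nop52* read 10.72, 10.76 and 10.73 with NaHS, against 11.13, 11.05 and 11.10 untreated. In both genes the groups were clearly apart. The log2 fold changes were -0.47 ± 0.08 for *brx1* (SE, limma adjusted p = 0.0226) and -0.36 ± 0.06 for *nop52* (SE, limma adjusted p = 0.0279). Neither was called in any fit that leaves out 1 array, where the adjusted p reached 0.119 and 0.142.

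The other 9 large subunit factors did not pass the test without the block. *nop16*, a nucleolar assembly factor, read 9.59, 10.05 and 9.67 with NaHS, against 10.22, 10.37 and 10.55 untreated. NaHS replicate 2 came close to the untreated arrays, and the log2 fold change was -0.61 ± 0.15 (SE, limma adjusted p = 0.071; 0.0213 with the block). *rrs1*, which acts on the particle of the smallest rRNA, read 10.37, 10.60 and 10.60 with NaHS, against 10.85, 11.12 and 11.21 untreated. Its groups did not overlap, with a log2 fold change of -0.54 ± 0.12 (SE, limma adjusted p = 0.0559; 0.00444 with the block). *rlp24*, which holds the place of a ribosomal protein in the precursor of the large subunit, read 10.07, 10.59 and 10.56 with NaHS, against 10.61, 11.08 and 11.14 untreated. Here replicate 1 was lower by 0.51 with NaHS and by 0.50 untreated, and the untreated replicate 1 lay only just above the NaHS arrays. The differences within numbers were -0.54, -0.49 and -0.58, and the limma adjusted p was 0.19 without the block and 0.00379 with it. *ebp2*, *noc3*, *nop12* and *rlp7*, all assembly factors of the large subunit, had log2 fold changes of -0.43, -0.26, -0.28 and -0.19. None passed limma without the block (adjusted p = 0.101, 0.208, 0.293 and 0.162), and all passed with it (0.0055, 0.0183, 0.0115 and 0.0409). *nop12* was the only large subunit gene whose groups overlapped.

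Small subunit factors include the utp genes, named for the U3 proteins of the processome, the large complex that forms on the first part of the precursor RNA. Of 7 utp genes 1 fell, *utp10*, and with the replicate block all 7 fell. Of all tested probe sets 3.67% fell without the block and 16.4% with it. The median of the 7 log2 fold changes was -0.33. *utp10* read 11.07, 11.08 and 11.04 with NaHS, against 11.34, 11.34 and 11.41 untreated. Its change was small and its spread was smaller, with a log2 fold change of -0.30 ± 0.06 (SE, limma adjusted p = 0.0477). It was called in no fit that leaves out 1 array, and its adjusted p rose up to 0.205.

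*utp4*, *utp5* and *utp15* belong with *utp10* to the subcomplex that binds the precursor first in *S. cerevisiae*. *utp4* read 10.09, 9.67 and 9.64 with NaHS, against 10.51, 10.13 and 10.15 untreated. *utp15* read 9.78, 9.45 and 9.29 with NaHS, against 10.20, 9.71 and 9.62 untreated. In both genes replicate 1 was the highest array of its group, and in *utp15* NaHS replicate 1 lay above untreated replicates 2 and 3. The log2 fold changes were -0.46 for *utp4* (limma adjusted p = 0.174; 0.00477 with the block), -0.33 for *utp15* (0.409; 0.0126) and -0.31 for *utp5* (0.274; 0.0205).

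*utp13*, of another subcomplex, *utp20*, a large scaffold, and *utp23*, which acts on release of a guide RNA, had log2 fold changes of -0.35, -0.17 and -0.52. None of these 3 passed limma without the block (adjusted p = 0.0723, 0.232 and 0.132), and all passed with it (0.00794, 0.0382 and 0.00403). *utp20* had the smallest decrease of the 7 utp genes.

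The other small subunit factor that fell was *nop9*, an RNA-binding protein with Pumilio repeats. It read 10.69, 10.42 and 10.49 with NaHS, against 11.12, 10.97 and 10.96 untreated. The highest NaHS array stayed below the lowest untreated one. The log2 fold change was -0.48 ± 0.10 (SE, limma adjusted p = 0.0398), and 1 of the 6 limma fits with 1 array fewer kept the call (adjusted p up to 0.141). *nop14*, a processome factor, had a log2 fold change of -0.27 (limma adjusted p = 0.0809; 0.0173 with the block). *bms1*, the GTPase of the processome, had 10.11, 10.07 and 9.73 with NaHS, against 10.46, 10.13 and 10.37 untreated. Its differences within numbers were uneven, at -0.35, -0.06 and -0.64, and it did not pass with the block either (limma adjusted p = 0.0884).

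*tsr3*, whose product adds a group to a modified base of the small subunit rRNA, read 9.72, 9.87 and 9.82 with NaHS, against 9.78, 9.88 and 9.89 untreated. The groups overlapped. The log2 fold change was -0.05, with a 95% interval of -0.23 to 0.14, so that a decrease as large as the median of the 37 genes lies outside the interval.

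The genes with other roles had log2 fold changes of -0.26 to -0.16. Some subunit factors, such as *utp20*, *rlp7* and *dbp8*, lay in the same range, and a difference between roles was not tested. The exosome, the complex that trims and degrades RNA from the 3′ end and finishes a short rRNA of the large subunit, is represented by *rrp6*, *rrp41* and *rrp46*. None of the 3 fell without the block, the groups overlapped in each, and the log2 fold changes were -0.24, -0.26 and -0.19. *rrp6*, its nuclear nuclease, read 8.63, 9.42 and 9.13 with NaHS, against 8.75, 9.57 and 9.56 untreated. Replicate 1 was lower than the mean of the other arrays by 0.64 with NaHS and by 0.81 untreated, much more than the difference between the groups. The 95% interval of its log2 fold change was -0.96 to 0.49. With the block *rrp41* fell (limma adjusted p = 0.0398), while *rrp6* and *rrp46* did not (0.0803 each).

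*nop10*, a core protein of the particles that turn uridines of rRNA into pseudouridine, read 12.05, 12.15 and 12.03 with NaHS, against 12.21, 12.30 and 12.38 untreated. The groups did not overlap, but the log2 fold change of -0.22 did not pass (limma adjusted p = 0.166; 0.0508 with the block). *rlp1* shares a family name but is known for a process other than ribosome biogenesis. It had a log2 fold change of -0.16 (limma adjusted p = 0.284; 0.0545 with the block), the smallest after that of *tsr3*.

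For *rrp12* and *rrp16* no role is given. The gene called *rrp12* by the array annotation is unnamed in RefSeq, which gives this symbol to another gene. They had log2 fold changes of -0.38 (limma adjusted p = 0.136; 0.00582 with the block) and -0.46 (0.181; 0.00624), and the groups of both did not overlap.

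**Figure D3:**
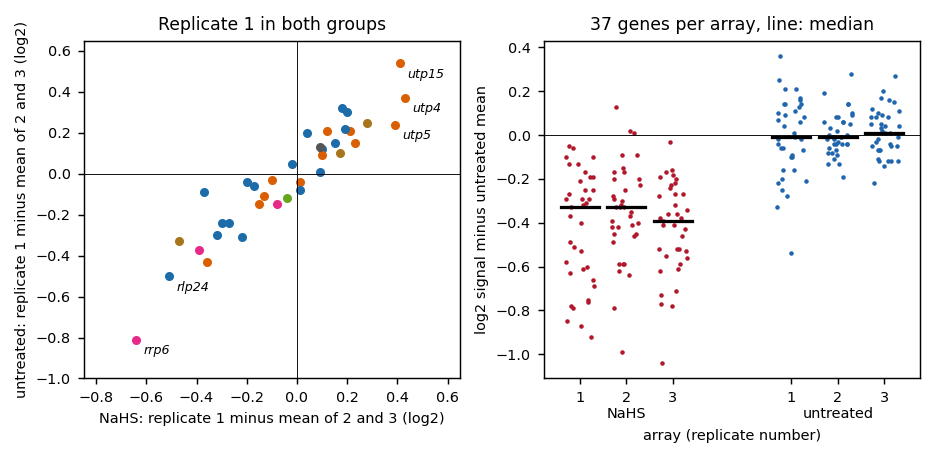
Left, replicate 1 minus the mean of replicates 2 and 3 (log2) for each of the 37 genes, with NaHS on the x axis and untreated on the y axis, coloured by role as in the plot of fold changes. Right, log2 signal of the 37 genes on each array minus the untreated mean of the gene, with lines at the medians. In 17 genes replicate 1 was lower and in 17 higher than the other arrays in both groups, and all NaHS medians lie below all untreated medians.

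The replicate 1 arrays moved the genes in both directions. In 17 of the 37 replicate 1 was lower than the mean of replicates 2 and 3 in both groups, and in 17 it was higher in both. *rrp6*, *rlp24* and *rrp16* were among the lower ones, and *utp15*, *utp4* and *dbp3* among the higher ones. In *utp15* replicate 1 was higher by 0.41 with NaHS and by 0.54 untreated. These shifts exceeded the change with NaHS in *rrp6* (log2 fold change -0.24) and *utp15* (-0.33), but not in *dbp3*, where replicate 1 was higher by 0.18 with NaHS and by 0.32 untreated and the log2 fold change was -0.72. Over all 37 genes the median change was -0.36 also without both replicate 1 arrays.

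The study named 7 of the 37 genes in its own group of repressed ribosome biogenesis genes, chosen on these same arrays by fold and test, so that their direction here is no independent evidence. They are *dbp2*, *dbp3*, *prh1*, *sda1*, *rrp8*, *skb15* and *nop16*. Of these 6 fell, and the median log2 fold change was -0.63. For *rrp8* the study also reported a decrease by real-time PCR. Among the 30 that it did not name 5 fell (16.7%), namely *brx1*, *nog1*, *nop52*, *nop9* and *utp10*, none of them by over 1.5-fold. All 30 had a lower mean with NaHS, 22 had groups that did not overlap, and the median was -0.34. With the replicate block 24 of the 30 fell, and without both replicate 1 arrays 15. Over all tested probe sets, 3.67% fell, and in 13.7% all NaHS arrays lay below all untreated ones. With the block 16.4% fell, and without both replicate 1 arrays 7.33%.

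Genes of the same process under other names mostly had lower means with NaHS. Of 25 measured ribosome biogenesis factors outside the name families 8 fell and 0 rose, 24 had a lower mean with NaHS, and the median log2 fold change was -0.36. With the replicate block 19 fell. Of all tested probe sets 3.67% fell without the block and 16.4% with it. *mak16*, a large subunit factor, read 10.06, 10.15 and 10.14 with NaHS, against 10.64, 10.64 and 10.60 untreated. Its arrays agreed closely within each group, and the log2 fold change was -0.51 ± 0.07 (SE, limma adjusted p = 0.00981). *grn1*, a nucleolar GTPase, *nmd3*, the export adaptor of the large subunit, and *spb1*, a methyltransferase, had log2 fold changes of -0.52, -0.48 and -0.56 (limma adjusted p = 0.0211, 0.0211 and 0.0239). The gene with a higher mean in the NaHS group was *drs1*, at 0.11 (limma adjusted p = 0.464). It was listed by its symbol. Whether it is the counterpart of the *S. cerevisiae* ribosome biogenesis gene of that name was not checked, and the counts and the median include it.

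RNA polymerase I, which makes the precursor RNA, is represented by 14 genes of its subunits and initiation factors. Of these 3 fell and 0 rose, 11 had a lower mean with NaHS, and the median log2 fold change was -0.34. With the block 9 fell. The shares over all tested probe sets were 3.67% without the block and 16.4% with it. The 3 that fell all encode subunits of the enzyme. *rpa12* read 10.36, 10.51 and 10.50 with NaHS, against 10.92, 10.95 and 10.96 untreated (log2 fold change -0.49 ± 0.07 SE, limma adjusted p = 0.017). *rpa49*, and *nuc1*, which encodes the largest subunit, had log2 fold changes of -0.42 and -0.33 (limma adjusted p = 0.0235 and 0.0344). Among the genes of initiation factors, *rrn3* and *rrn10* both had a log2 fold change of -0.34, and they passed limma with the block (adjusted p = 0.00983 and 0.0236) but not without it (0.0525 and 0.282). *rrn5*, *rrn6*, *rrn7*, *rrn11* and *spp27* had 0.02, 0.17, -0.10, -0.09 and 0.12, and none of them passed with or without the block.

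**Figure D4:**
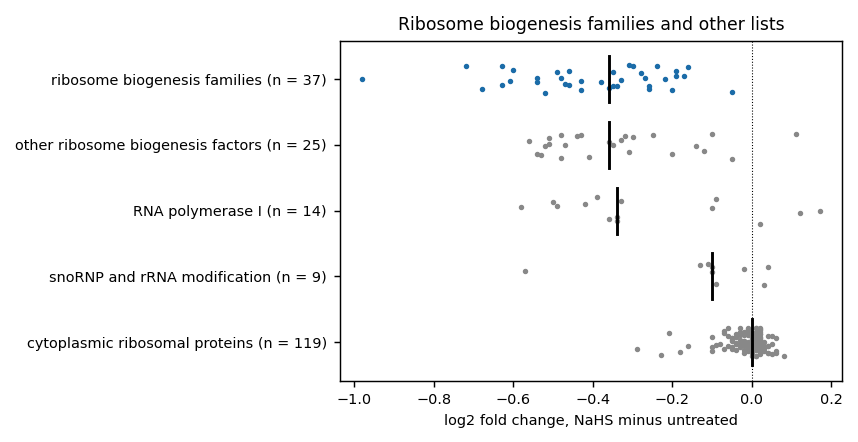
Log2 fold change (NaHS minus untreated) of each gene in the ribosome biogenesis families and in 4 other lists of ribosome production, with a bar at each median. The medians are -0.36, -0.36, -0.34, -0.10 and 0.00 from top to bottom, and the ribosomal protein genes crowd around 0.

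The genes listed for guide RNA proteins and modification of rRNA mostly had log2 fold changes nearer to 0. The list is broader than these 2 classes. Of its 9 genes 1 fell, where 3.67% of all tested probe sets fell. This was *gar2*, the nucleolin of *S. pombe*, which belongs to neither class. The median log2 fold change was -0.10. Mean log2 signals in this list had a median of 11.98 and reached 12.51, and whether such high signals were compressed was not tested. *gar2* read 11.36, 11.09 and 11.13 with NaHS, against 11.87, 11.71 and 11.71 untreated (log2 fold change -0.57 ± 0.10 SE, limma adjusted p = 0.0281). The pseudouridine synthase gene *cbf5* and the methyltransferase gene *fib1* had -0.11 and -0.10 (limma adjusted p = 0.424 and 0.544).

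The genes of the ribosome's own proteins had log2 fold changes around 0. Of 119 probe sets for cytoplasmic ribosomal proteins 0 fell and 0 rose in limma, with 2 lower and 0 higher at an unadjusted p below 0.05. The median log2 fold change was 0.00, with a range of -0.29 to 0.08, and in 3 the NaHS arrays lay below all untreated ones (13.7% of all tested probe sets). The median difference changed sign between replicate numbers, at -0.07, -0.10 and 0.15 for numbers 1, 2 and 3. With the replicate block 3 fell (16.4% of all tested probe sets). Their mean log2 signals ran from 10.63 to 13.21, with a median of 12.7, near the highest value on the arrays of 13.31. Whether such high signals were compressed was not tested.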

How the data were processed

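The authors deposited 1 log2 signal per probe set and array, made with MAS5 by an array service. The authors' MAS5 version and scaling (not given in the sources used here) set the level of each array. Blank cells were set to 0; none of the 37 genes has one. Tested were the 2937 probe sets paired with *S. pombe* genes and 2028 unlisted ones with a mean above 3.67, the 99th percentile of *S. cerevisiae* probe sets.

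NaHS and untreated arrays, 3 each, entered 1 limma fit (version 3.58.1, R 4.3.3) with a two-sided moderated test on 4 residual plus 2.02 prior degrees of freedom and Benjamini-Hochberg adjustment over 4965 probe sets. It stands in for the SAM test of the study. The fit was checked on simulated arrays with known changes and independent noise. These lacked the shift that the replicate 1 arrays share, so the check does not cover it. P-values set the change against the spread between biological repeats. Without the block this spread includes the shift that the replicate 1 arrays of both groups share, which the block takes out. Tables and plots were made with Python 3.11.15, pandas 2.3.3, NumPy 2.4.6 and matplotlib 3.10.9.

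Deviations from the group means over tested probe sets correlated at 0.867, 0.578 and 0.598 between arrays of the same number, so the numbers were taken as a pairing; across numbers 2 and 3 the values were 0.592 and 0.637, so the check rests mainly on replicate 1. The blocked value stands beside results it changes.

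Members, role groups and lists were chosen with earlier results of these data known. Described by name were the genes called, the 5 largest and 5 smallest decreases among the others, those the study names, the 2 with the highest signal in each role group, and up to 4 called genes per list; *bms1*, *cbf5*, *dbp10*, *dbp7*, *dbp8*, *drs1*, *ebp2*, *fib1*, *noc3*, *nop12*, *nop14*, *rrn10*, *rrn11*, *rrn3*, *rrn5*, *rrn6*, *rrn7*, *rrp12*, *spp27*, *utp13*, *utp15*, *utp4* and *utp5* were added after their values were seen. *prh1* and the *rrp12* of the annotation were taken out of a role group because their role was unsure. Promoter motifs were not analysed here.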

Additional observations from a re-analysis of the deposited data

How the results depend on the processing

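All 37 genes lay well above background, and precision is limited by the small number of arrays. The 11 of 37 genes that fell became 31 with the replicate number as a block and 21 without both replicate 1 arrays, an alternative chosen after seeing the data. Leaving out 1 array gave 1 to 8 genes, with 8 without NaHS replicate 1, 2 without NaHS replicate 2, 3 without NaHS replicate 3, 6 without untreated replicate 1, 2 without untreated replicate 2 and 1 without untreated replicate 3. Such fits have fewer arrays. Those lower by over 1.5-fold numbered 1 to 6 there. Quantile normalization gave 11 genes that fell, median centring 10, blanks as missing values 11, paired probe sets only 10, a filter at a mean log2 signal of 6 gave 12, and an intensity trend 15. Symbols updated through RefSeq left 36 genes, of which 11 fell, and since each gene has 1 probe set the mean over probe sets changed nothing. The median log2 fold change stayed between -0.40 and -0.34, and 0 genes rose in any of these fits. For 24 named genes in 336 comparisons the side of the threshold was the same in 273, a call was lost in 47 and one was gained in 16, and no direction turned. Those of the 37 genes that were added after their values were seen are not in this tally. All of them but *bms1* gained a call with the block. Among the 37 genes the block changed no call other than those given in the text.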
